A study of Mus musculus with 4 samples.

Results

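The cell cycle and DNA replication genes were measured in organoids grown from mouse colon adenomas, that is, in tumour epithelium cultured in 3D. They are 42 genes chosen by symbol, out of 17097 genes named on the array. An annotated probe set was found for 41 of them, and 40 passed the filter on dim genes. Ccnb1 had no expression value here and enters only the promoter counts, and Ccne2 was too dim to test. The study used 4 Affymetrix arrays, 2 for each labelled genotype. Organoids labelled Apc null carried VillinCreERT2, Apc fl/fl and intact Gata6 alleles (Gata6+/+), and those labelled Gata6 null/Apc null carried VillinCreERT2, Apc fl/fl and Gata6 fl/fl. Every culture therefore lacked Apc per its label, so no group had intact Apc, a brake on the Wnt pathway. Cre was driven by the Villin promoter, which is active in intestinal epithelium, and CreERT2 is a form of the recombinase that tamoxifen switches on. The mice were of a C57BL/6 background, their age is not given in the labels, and the cultures grew for 7 days in medium with EGF at 50 ng/ml. Each genotype had 1 array with the batch letter A and 1 with the letter B. The labels call the letter a batch and do not say what it stands for. The design text calls the replicates biological without naming separate mice or pools, so the p-values measure only the spread between these arrays, which may be technical. The comparison of the genotypes addresses whether genes of dividing cells depend on GATA6 in adenoma organoids, and the batch letter splits the same arrays the other way.

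A dividing cell passes from G1 through S phase, in which DNA is copied, to G2 and mitosis. D-type cyclins with their kinases, then cyclin E, relieve the retinoblastoma brake on E2F transcription factors, which switch on the genes of DNA replication. Mitotic genes are switched on later, largely through the MuvB complex with B-MYB and FOXM1, and inhibitors such as p21, p27 and p15 hold the cyclin-dependent kinases back. In the intestine, division is concentrated in the crypt, and loss of Apc in adenomas keeps the Wnt signal for division on.

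Array medians lay between 4.91 and 5.04 log2 units. Of 11 intestinal epithelium markers on the array, all 11 were above the filter level of 4.45 log2 units, by their means, with Epcam, Cdh1, Vil1 and Krt8 bright on every array and Krt20 the dimmest. Of the markers of other cell types, 7 of 10 fibroblast, 5 of 8 immune and 4 of 7 endothelial genes had means under the filter level, Col1a1, Ptprc and Kdr among them. The targeted gene did not fall in the arrays that carry its deletion label: the brighter Gata6 probe set read 9.37 and 9.40 there, against 8.89 and 8.61 in the Apc null arrays. Where that probe set lies relative to the deleted part is not known here, so it checks nothing, and every genotype direction rests on the labels. Values are log2 expression from the authors. Levels below are given for batch A and then batch B, each time with the Apc null array first and the Gata6 null/Apc null-labelled array second.

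Most of the cell cycle genes separated the arrays by batch letter, and few did so by genotype. Of 40 members tested, 24 were lower in batch B, by 1.30-fold to 2.92-fold, and 3 were higher (limma, genotype kept as a term, Benjamini-Hochberg adjusted p of 0.0115 to 0.0459). Over all 11874 genes tested, 9.12% were called lower in batch B and 7.53% higher, 16.6% in all, against 67.5% of the members. The median difference, batch B minus batch A, was -0.59 over the members and -0.06 over all genes. Both batch B arrays lay below both batch A arrays for 32 members, which 33.1% of all genes did, and above them for 3 members, which 21.0% of all genes did. Between genotypes no member passed the threshold (limma), where 0.648% of all genes did, in a fit without the batch letter as a term. With both terms kept, as in the batch fit, 1 of 40 members and 6.88% of all genes passed between genotypes. These are bulk samples, so fewer dividing cells and less of each RNA per cell cannot be told apart.

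The batch calls rest on a fit with 1 residual degree of freedom and on keeping genotype as a term. With the batch letter as the single term limma called 0 of 40 members and 0.00% of all genes. In that fit 31 members had an unadjusted p under 0.05, as had 2432 of 11874 genes tested. No member was called either when any 1 of the 4 arrays was left out, a fit with 1 array in a group. An exact permutation test of 2 arrays against 2 cannot go below a two-sided p of 0.333.

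**Figure D1:**
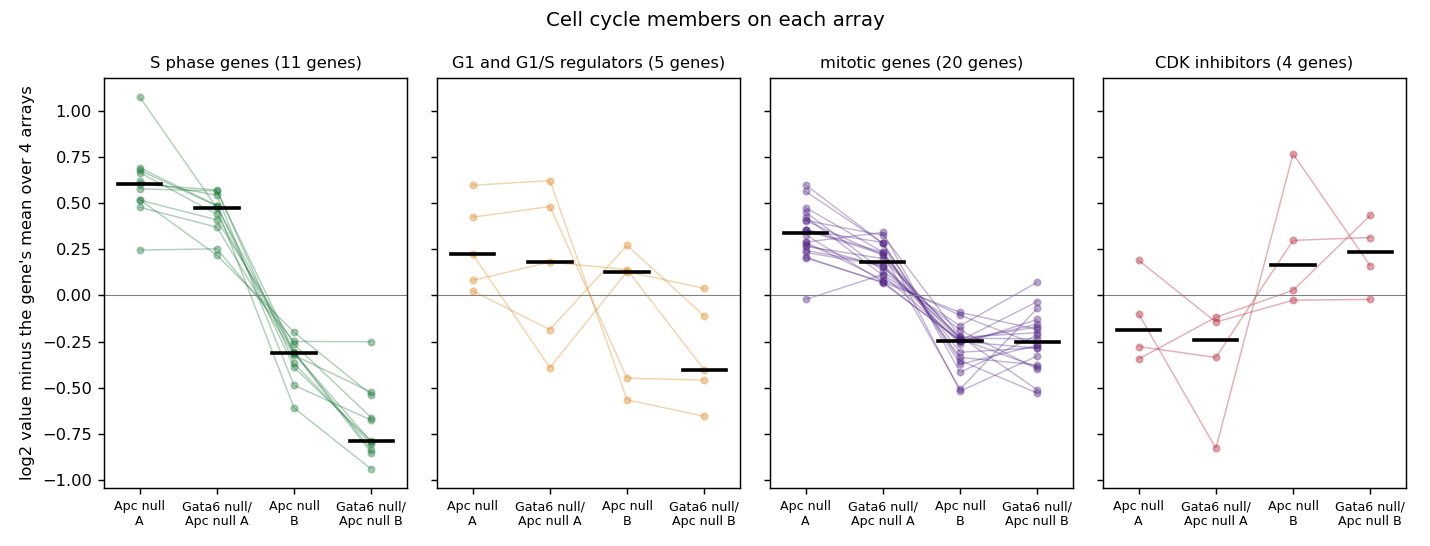
Each line is a gene and each point its log2 value on an array minus the gene's mean over the 4 arrays, by role, with black bars at the median over genes. The S phase medians are 0.60 and 0.47 on the batch A arrays and -0.31 and -0.79 on the batch B arrays, while the CDK inhibitor medians run the other way, from -0.19 and -0.24 to 0.16 and 0.24.

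The S phase genes encode the loading factors, helicase, sliding clamp and nucleotide-synthesis enzymes of DNA replication. All 11 were tested and all 11 were lower in batch B, by 0.50 to 1.55 on the log2 scale, with a median difference of -1.14 (adjusted p of 0.0115 to 0.0141). All 11 had both batch B arrays below both batch A arrays, which 33.1% of all genes did, and 9.12% of all genes were called lower. Cdc6, which loads the replicative helicase onto origins, read 8.50 and 7.90 in batch A and 6.81 and 6.48 in batch B. It had the largest difference of the members, -1.55 (SE 0.17, adjusted p = 0.0115), a 2.92-fold decrease. The spread between genotypes within a batch, 0.60 in batch A and 0.33 in batch B, was smaller than the step between batches.

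Mcm6, a subunit of the MCM helicase that unwinds DNA at the fork, read 9.32 and 9.11 in batch A and 8.24 and 7.84 in batch B, a difference of -1.18 (SE 0.13, adjusted p = 0.0115). Mcm2, another subunit, read 9.51 and 9.31, then 8.52 and 7.98, and differed by -1.16 (SE 0.14). Mcm2 and Mcm6 were thus lowest on the Gata6 null/Apc null-labelled array of batch B and highest on the Apc null array of batch A. The remaining helicase subunits were lower by similar amounts, with differences of -1.10 for Mcm3, -1.16 for Mcm4, -0.93 for Mcm5 and -0.85 for Mcm7. Cdt1, the partner of Cdc6 in helicase loading, differed by -0.74 (SE 0.09). The other probe sets of Mcm2, Mcm3, Mcm7 and Cdt1 above the filter level gave -1.31, -1.19, -0.78 and -0.98.

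Tyms encodes thymidylate synthase, which makes the thymidine nucleotide, and read 10.39 and 10.36 in batch A and 9.43 and 8.99 in batch B (difference -1.17, SE 0.12, adjusted p = 0.0115). Rrm2, the regulated subunit of ribonucleotide reductase, read 9.92 and 9.91, then 9.04 and 8.51 (difference -1.14, SE 0.15, adjusted p = 0.0124). Pcna, the sliding clamp of the polymerases, had the smallest step of the S phase genes. It read 11.02 and 11.03 in batch A and 10.53 and 10.53 in batch B, with a difference of -0.50 (SE 0.07, adjusted p = 0.0141), so the genotypes were level within each batch.

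The 120 bases before the start of Mcm6 (RefSeq, GRCm38.p6, chr1:128359706-128359825, minus strand) are shown because Mcm6 was among the S phase genes with the largest batch difference and holds E2F words. Capitals mark E2F words (TTTCCCGC, TTTCGCGC, TTTGCCGC or TTTGGCGC) and the CCAAT word of NF-Y, each on either strand. In the first run of capitals 2 E2F words overlap.
Mcm6: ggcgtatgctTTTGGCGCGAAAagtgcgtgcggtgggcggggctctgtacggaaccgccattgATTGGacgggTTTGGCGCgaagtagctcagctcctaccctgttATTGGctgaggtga
In the 250 bases before the start, an E2F word was found for 4 of 10 S phase genes with a sequence (Cdc6, Mcm5, Mcm6 and Mcm7), 1 of 16 mitotic genes (Cdk1) and 1.86% of 32851 RefSeq windows of that length. Tyms, Mcm2, Mcm3, Pcna, Rrm2 and Cdt1 held no E2F word in that window. An E2F word was also found for 1 of 4 CDK inhibitors (Cdkn2a) and 0 of 3 G1 and G1/S regulators with a sequence. A match is a description of the letters and not evidence of binding.

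Of 5 G1 and G1/S regulators tested, Ccne1 and E2f1 were lower in batch B, as were 9.12% of all genes, and none was higher. None of the 3 D-type cyclins passed the threshold, and the difference between them and the called genes was not tested. Ccne1 encodes cyclin E1, which drives entry into S phase, and read 7.63 and 7.66 in batch A and 6.47 and 6.38 in batch B. Its difference of -1.22 (SE 0.17, adjusted p = 0.0147) was a 2.33-fold decrease, and the groups did not overlap. E2f1, a transcription factor of the replication genes, read 7.52 and 7.58, then 6.65 and 6.64 (difference -0.90, SE 0.17, adjusted p = 0.0242). Its other probe set gave -0.63, which did not pass (adjusted p = 0.0660 over all probe sets).

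Ccnd1, Ccnd2 and Ccnd3 encode the D-type cyclins that link growth signals to the cycle. Ccnd1 read 11.26 and 11.36 in batch A and 11.32 and 10.78 in batch B, so that 1 array, labelled Gata6 null/Apc null in batch B, stood below the other 3. Ccnd2 read 11.69 and 11.48, then 11.94 and 11.56, and Ccnd3 read 8.01 and 7.39, then 7.91 and 7.82. Their batch differences were -0.26, 0.16 and 0.17 (SE 0.14, 0.06 and 0.18; adjusted p = 0.263, 0.145 and 0.573), and the batches overlapped for all 3. Ccne2, cyclin E2, read 4.01 and 4.42, then 3.45 and 3.76, on all 4 arrays under the filter level, and was not tested.

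**Figure D2:**
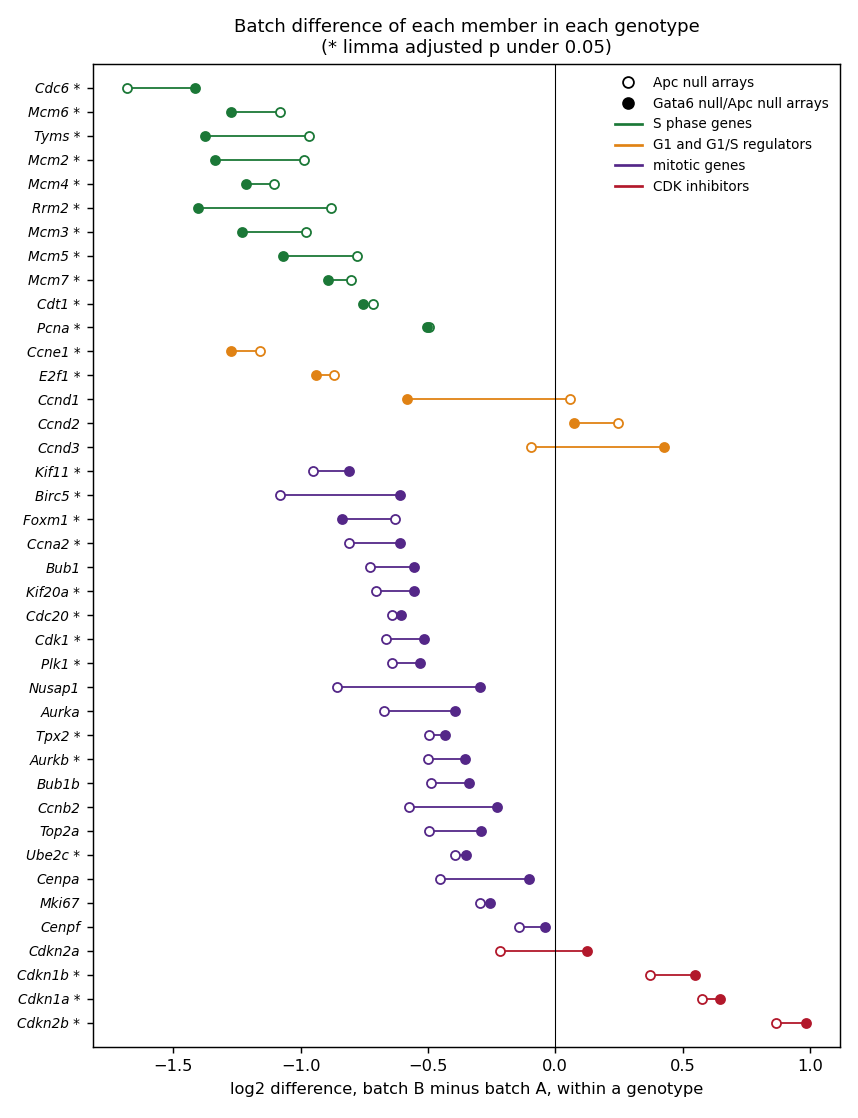
Each row is a member, with its log2 difference between batch B and batch A in the Apc null arrays (open circles) and the Gata6 null/Apc null arrays (filled circles); an asterisk marks a limma adjusted p under 0.05. At the probe sets used, all 11 S phase genes and all 20 mitotic genes lie below 0 in both genotypes, with medians of -0.97 and -1.23 for S phase and -0.63 and -0.41 for mitotic genes.

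The mitotic genes build and check the spindle, condense chromosomes and divide the cell. Of 20 tested, 11 were lower in batch B, as were 9.12% of all genes, and none was higher. Their median difference was -0.56 and their differences ran from -0.88 to -0.09. At the probe sets used, all 20 were below 0 in both genotypes. Both batch B arrays lay below both batch A arrays for 19 of 20, which 33.1% of all genes did. The exception was Cenpf. For Cenpa, Top2a and Cenpf these counts depend on the probe set, since another one lay above 0. The median step was thus smaller than that of the S phase genes, a difference that was not tested.

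Kif11, the motor that pushes the spindle poles apart, read 9.27 and 8.95 in batch A and 8.32 and 8.14 in batch B (difference -0.88, SE 0.12, adjusted p = 0.0146). Birc5 encodes survivin, of the chromosomal passenger complex, and read 10.26 and 9.98, then 9.18 and 9.37 (difference -0.85, SE 0.13, adjusted p = 0.0169). Both had clear gaps between the batches, and in batch B the genotypes ran in opposite directions for these 2 genes. Foxm1, a transcription factor of mitotic genes, read 7.67 and 7.59, then 7.04 and 6.75 (difference -0.73, SE 0.17, adjusted p = 0.0396). Its other probe sets above the filter level gave -0.98 and -0.77. Ccna2 encodes cyclin A2, which acts in S phase and G2, and read 11.03 and 10.79, then 10.22 and 10.18 (difference -0.71, SE 0.08, adjusted p = 0.0115).

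Plk1, the polo kinase of mitotic entry, read 9.94 and 9.62 in batch A and 9.30 and 9.09 in batch B (difference -0.59, SE 0.10, adjusted p = 0.0191). Also lower in batch B were Cdk1, the kinase that drives mitosis (-0.59), Cdc20, an activator of the anaphase-promoting complex (-0.62), Ube2c, its ubiquitin-conjugating partner (-0.37), the kinesin Kif20a (-0.63), the spindle factor Tpx2 (-0.47) and the passenger kinase Aurkb (-0.43). The 9 mitotic genes that did not pass were Mki67, Top2a, Ccnb2, Aurka, Bub1, Bub1b, Cenpa, Cenpf and Nusap1, with differences of -0.64 to -0.09 and adjusted p-values of 0.0548 to 0.641. Mki67, the antigen used to count cycling cells, read 10.16 and 10.03, then 9.86 and 9.77 (difference -0.27, SE 0.09, adjusted p = 0.0828), so its batches did not overlap but stood close together.

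Probe sets of a gene did not always give the same picture. Of 30 further probe sets of members above the filter level, 27 had the sign of the chosen one between batches. The exceptions belonged to Cenpa, Top2a and Cenpf. Between genotypes, 24 of the 30 had the sign of the chosen one. A dimmer Cenpa probe set was higher in batch B by 1.03 (adjusted p = 0.0198 over all probe sets), against -0.28 at the brighter one (adjusted p = 0.176 over genes), so no direction is given for this centromeric histone gene. The dimmer Top2a probe set differed by 0.47 and did not pass (adjusted p = 0.151 over all probe sets). Tpx2 was lower at both of its probe sets, with differences of -0.47 and -1.09. Of the other Tyms probe sets, 1 gave -1.26, and 3 close to the filter level gave -0.24 to -0.03 and did not pass.

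The promoter stretches of Kif11 and Cdk1 are shown because Kif11 had the largest batch difference of the mitotic genes and because Cdk1 was also lower. They are the 120 bases before each start (RefSeq, GRCm38.p6), at chr19:37376262-37376381 on the plus strand for Kif11 and chr10:69352913-69353032 on the minus strand for Cdk1. Capitals mark the CHR word of MuvB targets (TTTGAA) and the CCAAT word, on either strand.
Kif11: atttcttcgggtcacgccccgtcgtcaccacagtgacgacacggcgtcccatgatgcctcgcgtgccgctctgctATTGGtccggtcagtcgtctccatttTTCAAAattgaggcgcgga
Cdk1: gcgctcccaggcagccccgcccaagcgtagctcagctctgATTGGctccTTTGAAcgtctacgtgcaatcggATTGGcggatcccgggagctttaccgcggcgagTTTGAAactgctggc
In the 250 bases before the start, the CHR word was found for 7 of 16 mitotic genes with a sequence, 1 of 10 S phase genes and 16.0% of all windows. The CCAAT word was found for 14 of 16 mitotic genes, 7 of 10 S phase genes and 33.8% of all windows. The CHR and CCAAT words occurred together for 7 of 16 mitotic genes and 5.55% of all windows. Among 4 CDK inhibitors with a sequence, 1 held a CHR word (Cdkn2b) and 1 a CCAAT word (Cdkn1b). Neither word was found for the 3 G1 and G1/S regulators with a sequence. Birc5 and Nusap1 held none of the words searched.

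Most of the CDK inhibitors moved against most of the other members. Of 4 tested, 3 were higher in batch B, as were 7.53% of all genes, none was lower, and the median difference was 0.54. Cdkn1a encodes p21, a p53 target that blocks cyclin-dependent kinases, and read 10.74 and 10.68 in batch A and 11.31 and 11.33 in batch B. Its difference was 0.61 (SE 0.07, adjusted p = 0.0115), a 1.53-fold increase, and its other probe set gave 0.59 (adjusted p = 0.0130 over all probe sets). Cdkn2b, p15, which holds CDK4 and CDK6 and responds to TGF-beta, read 7.96 and 7.24, then 8.83 and 8.23. It rose by 0.93 in batch B (SE 0.14, adjusted p = 0.0163), and its lowest batch B array was above its highest batch A array.

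Cdkn1b, p27, read 9.06 and 9.29 in batch A and 9.43 and 9.84 in batch B (difference 0.46, SE 0.11, adjusted p = 0.0384). With each array centred on its own median Cdkn1b did not pass, and its other probe set gave 0.40 (adjusted p = 0.0880 over all probe sets). Cdkn2a, whose transcripts encode p16 and p19Arf, was dim, at 5.13 and 4.80, then 4.92 and 4.92, and did not pass (difference -0.05, SE 0.17, adjusted p = 0.878).

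The wider cell cycle lists ran the same way as the members between batches. Over all genes tested, 9.12% were called lower in batch B and 7.53% higher. Of 46 other DNA replication genes tested, 30 were lower and none was higher. All 46 differences were below 0, as were 6806 of 11874 over all genes, with a list median of -0.75. Prim1, a primase subunit, was lower by 1.21 on the log2 scale, Rpa2, of the single-strand binding complex, by 1.28, and Dut, which clears dUTP, by 1.07 (each adjusted p = 0.0115). Of 54 other mitotic genes, 19 were lower and 3 higher, with a median of -0.45. The cohesin regulator gene Cdca5 differed by -1.10, the chromatin protein gene Hmgb2 by -0.57 and the condensin gene Ncapg2 by -1.32. The 3 higher genes were Psrc1 (0.92), Tacc3 (0.74) and Hjurp (0.65), with adjusted p-values of 0.0149 to 0.0419.

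Of 27 other cell cycle regulators, 10 were lower, as were 9.12% of all genes, none was higher, and the median was -0.54. E2f7, an atypical E2F that is itself an E2F target, read 7.40 and 7.14 in batch A and 5.38 and 5.46 in batch B, a 3.60-fold decrease (difference -1.85, SE 0.19, adjusted p = 0.0115). Mybl2, which encodes B-MYB, differed by -1.56 (SE 0.18, adjusted p = 0.0115), and Tfdp1, the partner of E2F proteins, by -0.79. Of 15 p53 target genes tested, the list to which Cdkn1a also belongs by function, 2 were higher in batch B and none was lower, with a median of 0.33. That is 13.3% called, against 16.6% of all genes. The median was 0.47 in the Apc null arrays, with all 15 above 0, and 0.085 in the Gata6 null/Apc null-labelled arrays, with 10 above 0. The called genes were Trp53inp1 (0.74, adjusted p = 0.0332), whose batches overlapped, and Btg2 (0.65, adjusted p = 0.0470).

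**Figure D3:**
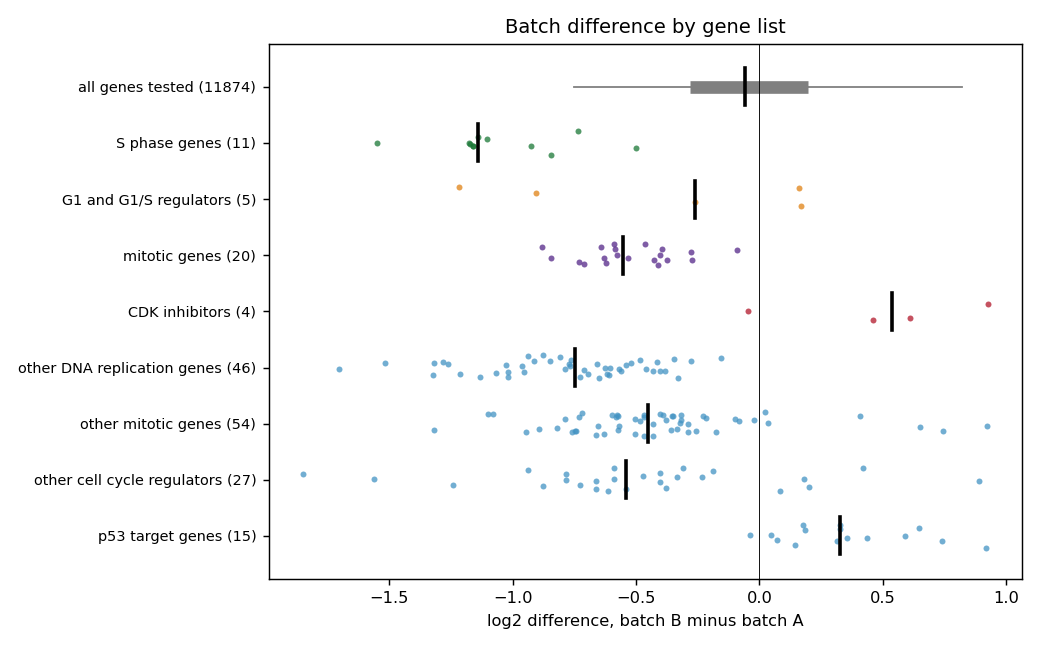
Points are genes and black bars list medians of the log2 difference between batch B and batch A; for all 11874 genes tested the thick bar spans the 25th to 75th percentile (-0.28 to 0.20) and the thin line the 5th to 95th (-0.75 to 0.82). The replication and mitotic lists lie mostly below 0, and the CDK inhibitors and p53 targets mostly above it.

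Few cell type markers were called between batches. Among the epithelial markers 1 of 11 was called (9.09%, against 16.6% of all genes), Cdx1, a homeobox gene of the intestine, at 10.36 and 9.89 in batch A and 9.39 and 9.40 in batch B (difference -0.73, adjusted p = 0.0228). Of the immune markers 3 were tested and 1 was called, Cd68, a lysosomal protein of macrophages, at 5.92 and 4.94, then 7.56 and 7.23 (difference 1.97, adjusted p = 0.0115). The summed immune signal on the linear scale was 171 and 156 on the batch A arrays and 302 and 253 on the batch B arrays. Without Cd68 the sums were 111 and 125, then 112 and 103, so the higher batch B sums came from Cd68. Ptprc, Adgre1, Tyrobp, Itgam and Cd3e stayed under the filter level. Fibroblast sums were 211 and 220 in batch A and 217 and 200.4 in batch B, and endothelial sums were 156 and 158, then 158 and 173. The part of other cell types in the batch difference was not tested.

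Between genotypes, no cell cycle member passed the threshold in either direction. Of 40 members 1, Ccnd2, had an unadjusted p under 0.05 in limma, as had 946 of 11874 genes. With the batch letter as a replicate block 1, Cdkn2b, passed, against 6.88% of all genes with the block. It did not pass in the blocked fit over all probe sets (limma adjusted p = 0.0611). The median difference, Gata6 null/Apc null minus Apc null, was -0.15 over the members and -0.03 over all genes. The arrays of the genotypes overlapped for 37 of 40 members. Both Gata6 null/Apc null-labelled arrays lay below both Apc null arrays for 2, which 17.3% of all genes did, and above them for 1, which 14.7% of all genes did. The missing call does not show equal levels, since the standard errors of this fit hold the batch step: for the S phase genes they ran from 0.25 to 0.74 log2 units.

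**Figure D4:**
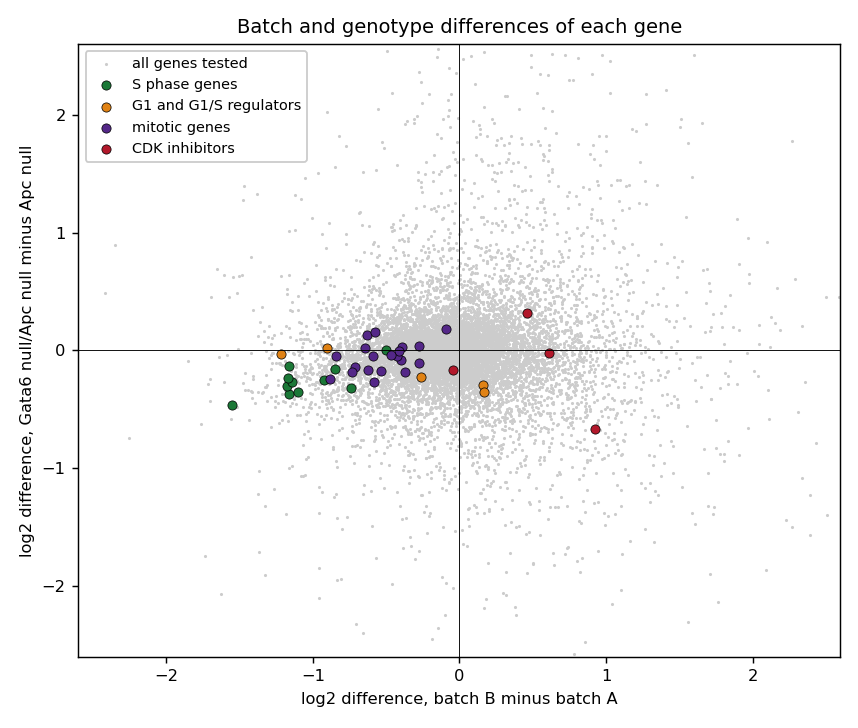
Each point is a gene, with its log2 difference between batches on the horizontal axis and between genotypes on the vertical axis; grey points are all genes tested, of which 101 lie outside the axes. The members spread from -1.55 to 0.93 along the batch axis and from -0.67 to 0.32 along the genotype axis.

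The S phase genes had a median genotype difference of -0.27, and 10 of 11 lay below 0 without passing. Over all 11874 genes tested, 6632 lay below 0. Within batch A the S phase median was -0.11, and within batch B, where all 11 were below 0, it was -0.40. Within batch B 6121 of 11874 genes were below 0. The largest S phase genotype differences were those of Cdc6 (-0.46, SE 0.74, adjusted p = 1.00, and 0.203 blocked) and Mcm2 (-0.37, SE 0.56, adjusted p = 1.00, and 0.206 blocked). Pcna showed the smallest, 0.0028 (SE 0.25). For each of the 11 the genotype groups overlapped, since the batch step was wider than the genotype difference.

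The mitotic genes had a median genotype difference of -0.05. Within batch A 18 of 20 were below 0 (median -0.13), but 11 of 20 were above 0 within batch B (median 0.02). Over all 11874 genes tested, 6843 were below 0 within batch A and 5753 above 0 within batch B. Plk1 differed by -0.26 (SE 0.31, adjusted p = 1.00; blocked, 0.217) and Kif11 by -0.25 (SE 0.44, adjusted p = 1.00; blocked, 0.353). Kif20a and Cenpf were above 0 in both batches, by 0.05 and 0.20 for Kif20a and 0.13 and 0.24 for Cenpf, and neither passed. The other Cenpf probe set above the filter level was below 0 in both batches, with a joint difference of -0.09.

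Among the G1 regulators, Ccnd2 had the smallest unadjusted p of the members. Its difference of -0.30 had an SE of 0.11 (adjusted p = 0.580; blocked, 0.0534) and was -0.21 for batch A and -0.38 for batch B. The 2 Gata6 null/Apc null-labelled arrays lay below both Apc null arrays. All 5 other Ccnd2 probe sets gave differences below 0, from -0.32 to -0.13. Ccnd3 had a joint difference of -0.35, with -0.61 for batch A and -0.09 for batch B (SE of the joint value 0.26, adjusted p = 1.00). Ccnd1 had 0.10 and -0.54, with a joint difference of -0.22 (SE 0.21, adjusted p = 1.00). Its other probe sets gave joint differences of -0.33 and -0.45 and did not pass. At each of these, both Gata6 null/Apc null-labelled arrays lay below both Apc null arrays.

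Of the CDK inhibitors, Cdkn2b passed as lower under the Gata6 null/Apc null label when the batch letter was a block. Its difference was -0.67 (SE 0.47), made up of -0.73 for batch A and -0.61 for batch B. The adjusted p was 1.00 without the block and 0.0488 with it. In the blocked fit over all probe sets Cdkn2b did not pass (limma adjusted p = 0.0611). The epithelial marker Cdx2, a homeobox gene of the intestine, moved the same way, with 7.29 and 8.11 under that label against 9.13 and 9.41 in the Apc null arrays (adjusted p = 0.228; blocked, 0.00545). All 11 epithelial markers had genotype differences below 0, as had 6632 of 11874 genes, with a marker median of -0.23. The part of these markers in the Cdkn2b difference was not tested. Cdkn1b differed by 0.32 (SE 0.26, adjusted p = 1.00; blocked, 0.167) and Cdkn1a by -0.02 (SE 0.29). Cdkn2a differed by -0.16 (SE 0.16), from -0.33 in batch A and 0.0047 in batch B.

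Among genes of the wider lists, none passed between genotypes either. An unadjusted limma p under 0.05 was found for 1 of 46 replication genes and 0 of 54 mitotic genes. It was also found for 1 of 27 regulators and 1 of 15 p53 targets, and for 946 of 11874 genes tested in all. With the block 2, 0, 1 and 2 genes of these lists passed, where 6.88% of all genes did. Rpa1, of the single-strand binding complex, differed by 0.56 (adjusted p = 0.620; blocked, 0.0283) and the thymidine kinase gene Tk1 by -0.55 (adjusted p = 0.938; blocked, 0.0329). Cdkn1c, which encodes the inhibitor p57, differed by 1.03 (adjusted p = 0.313; blocked, 0.0394), reading 6.67 and 7.43 in batch A and 6.48 and 7.78 in batch B. The mitotic genes with the smallest p were Gtse1 (-0.54, adjusted p = 0.845) and Mad2l1 (0.43, adjusted p = 0.950). The kinase gene Cdk6 differed by -0.46 (adjusted p = 0.852) and the p53 target Ccng1 by -0.34 (adjusted p = 0.624). The p53 targets Perp and Trp53inp1 differed by -0.50 and 0.80 (adjusted p = 0.0464 and 0.0423 with the block). Without the block neither passed (limma adjusted p = 0.818 for Trp53inp1). In the blocked fit over all probe sets neither passed, at 0.0586 for Perp and 0.0544 and 0.0656 for the Trp53inp1 probe sets. Cdkn1c did not pass in that fit either (limma adjusted p = 0.0511).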

How the data were processed

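Per the submitters' processing notes, the authors summarised the probes with RMA (affy), and what they deposited is a log2 expression value for each probe set. A genome build and tool versions were not given in the sources used. Per the labels' protocols, RNA of integrity number 9 or above was amplified from a small input before labelling, which can alter differences of dim genes. RMA makes the arrays share one distribution, so a shift common to all genes cannot be seen, and differences of dim genes are understated. The number of arrays sets the precision.

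Of 45141 probe sets, 104 controls were left out. The platform annotation named 1 gene for 28898, several for 551 and none for 15588, and a check by Entrez identifier against RefSeq (28689 matched) changed 0 symbols. The brightest probe set by mean stood for each gene. Genes whose mean lay below the 40th percentile (4.45) were not tested, which left 11874. The table had 0 unused sample columns.

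Both contrasts were fitted over all genes tested with limma 3.58.1 in R 4.3.3 (eBayes with a trend, Benjamini-Hochberg adjustment, two-sided, threshold 0.05). The genotype fit had genotype as its single term (2 residual degrees of freedom, 2.83 added by moderation), and the batch fit had genotype and batch letter (1, 4.99 added). p-values over probe sets come from the same fits over all probe sets above the filter level. Lists were described by counts and medians and not tested. The labels name the letter as a batch and give each letter to 1 array of each genotype. On that label alone, the batch fit and the replicate block treated arrays of a letter as a pair. The main genotype fit did not. The B minus A differences of the genotypes correlated at 0.675 across genes. The fits were checked on simulated data with known shifts in some of 11874 genes. Of 67 genes shifted by 1 log2 unit, the genotype fit called 8 and the batch fit 65. Among genes without a shift, the genotype fit made 5 false calls and the batch fit 41. Shifts of 1 log2 unit between genotypes were thus mostly missed.

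The members and lists were chosen with earlier results of these data known. Levels on all 4 arrays are given for the members with the largest batch (4 per role) or genotype differences (2 per role), for all CDK inhibitors, and for members added after their values were seen (Rrm2, Pcna, Ccne2, Mki67). Of each wider list, up to 3 genes called in each direction are named by smallest p, or the 2 with the smallest p where none was called. Trp53inp1 between genotypes, and Cdx1, Cd68 and Cdx2 among the markers, were named after their values were seen. Promoter sequences came from RefSeq (GRCm38.p6) for 33 of 42 members, Ccnb1 among them, with the most upstream start where a gene had several. Those printed were chosen after their letters were seen. Alternatives were other filters, probe set rules, moderation and centring, the block, and leaving out each array.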

Additional observations from a re-analysis of the deposited data

Results flagged for a closer look

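With 2 arrays in a group, no array was tested for standing apart from its group. The results below differed in sign between batches or between genotypes. Each such difference compares 1 array with 1 array, and the difference between the signs was not tested. Opposite signs between batches occurred for the genotype difference of 15 of 40 members, against 36.6% of all genes, and opposite signs between genotypes for the batch difference of 3 of 40, against 26.6%.

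Values here are the genotype difference (Gata6 null/Apc null minus Apc null) in batch B minus that in batch A, in log2 units. Each mitotic gene listed here had a genotype difference below 0 in batch A and above 0 in batch B. The value was 0.56 for Nusap1, 0.47 for Birc5, 0.35 for Cenpa, 0.34 for Ccnb2, 0.21 for Top2a and 0.17 for Bub1. It was 0.15 for each of Bub1b, Cdk1 and Aurkb. The G1 and S phase genes listed here were above 0 in batch A and below it in batch B. The value was -0.64 for Ccnd1, -0.11 for Ccne1, -0.068 for E2f1 and -0.0089 for Pcna. It was 0.34 for Cdkn2a and 0.074 for Cdkn1a, both below 0 in batch A. At the other probe sets of Ccnd1, Cenpa, Top2a and Cdkn1a above the filter level, the genotype difference had the same sign in both batches.

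For the batch difference (batch B minus batch A), the value in the Gata6 null/Apc null-labelled arrays minus that in the Apc null arrays was -0.64 for Ccnd1, 0.52 for Ccnd3 and 0.34 for Cdkn2a. None of these 3 was called between batches.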

How the results depend on the processing

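The batch count of 27 members called was 24 to 29 with no filter on dim genes, the filter at the 60th percentile, the mean of all probe sets, probe sets without a shared-sequence suffix, or arrays centred on their medians. It was 14 without a trend in the moderation, where 873 genes were called in all against 1977. It was 0 with the batch letter as the single term and 0 to 0 when 1 array was left out. Those fits leave genotype in the residual, or have 3 arrays and the batch letter alone. The S phase median batch difference, -1.14, was -1.34 to -0.88 without 1 array, and its sign did not turn. Cenpa differed by 1.03 between batches, in the other direction, when probe sets with a shared-sequence suffix were left out, because another probe set was then used.

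The genotype count of 0 members was 1 with the replicate block, which called 817 genes against 77, and 0 under every other setting run. The genotype medians followed the arrays used, since leaving out an array unbalances the batches: that of the S phase genes was -0.92 to 0.29 without 1 array, and that of the mitotic genes -0.36 to 0.24. Of 160 genotype differences of members with 1 array left out, 65 changed sign, against 5 of 160 batch differences. With 2 arrays a group, small differences in dim genes such as Cdkn2a cannot be resolved.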
